A study of Arabidopsis thaliana with 6 samples.

Results

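Plastids and mitochondria keep small genomes of their own, but nearly all proteins that copy, repair and read them are encoded in the nucleus. The genes described here are 40 such nuclear genes of the thale cress Arabidopsis thaliana, out of 32948 genes in the expression table. They were chosen by locus, from their known function, with earlier results of these data known. Of them 19 serve maintenance of organelle DNA and 21 serve transcription in plastids. By the known destination of their proteins, 27 act in plastids, 4 in mitochondria and 9 in both. RNA with poly(A) tails was read in 3 libraries from seedlings of cnd1-3, a mutant, and 3 from wild-type Col-0 seedlings. The study is on CND1 and genome stability in nucleus and chloroplast, and the RNA data address which transcripts change in its mutant. The locus of CND1, the nature of the cnd1-3 allele, the age and growth of the seedlings and whether libraries came from separate plants are not stated in the sources used here. The targeted gene was therefore not checked, and p-values measure the spread between these libraries, which may be technical. Levels are FPKM, reads scaled by exon length and by the depth of the library.

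In plant organelles the genome is present in many copies that recombine often. RecA-like strand exchange proteins and single-stranded DNA binding proteins of the Whirly and OSB families steer breaks toward accurate repair, and bacterial-type DNA polymerases, a primase-helicase and gyrase copy and unwind the DNA. Plastid genes are read by a bacterial-type RNA polymerase, whose core is encoded in the plastid and which needs nuclear sigma factors and a shell of nuclear associated proteins, and by phage-type polymerases that are encoded in the nucleus alone. The associated proteins are needed for chloroplast greening.

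The libraries held between 22125814 and 30455907 reads assigned to genes, and correlations of log2 level across genes, which are not independent replicates, were 0.989 to 0.992 within a genotype and 0.974 to 0.98 between the genotypes. Shoot marker genes were abundant, with the sum of RBCS1A, CAB3, LHCB2.1 and CA1 between 32070 and 35080 FPKM. Root markers were nearly absent. Of 4, EXPA7 and PHT1;1 were listed at 0 in every library, and the sum of the 4 was at most 0.074 FPKM in cnd1-3 and 0 in Col-0. The samples are labelled seedlings, and the labels do not say whether roots were harvested. The levels given here need not be those of whole seedlings. Of 3 seed storage genes, all were listed at 0. In such bulk samples fewer cells of a type and less RNA per cell cannot be told apart.

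Transcripts of all 40 genes were detected in all 6 libraries and passed the minimum level for testing. Within the maintenance genes, Col-0 means ran from 2.77 FPKM for RECA2 to 29.1 for the mitochondrial Whirly gene WHY2. Within the transcription genes they ran from 0.681 FPKM for the sigma factor gene SIG5, which light and stress are known to induce, to 209 for PTAC7, a gene of the polymerase-associated proteins. SIG5 had the fewest reads, with at least 42 in each library, and the next gene, RECA2, had at least 106.

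**Figure D1:**
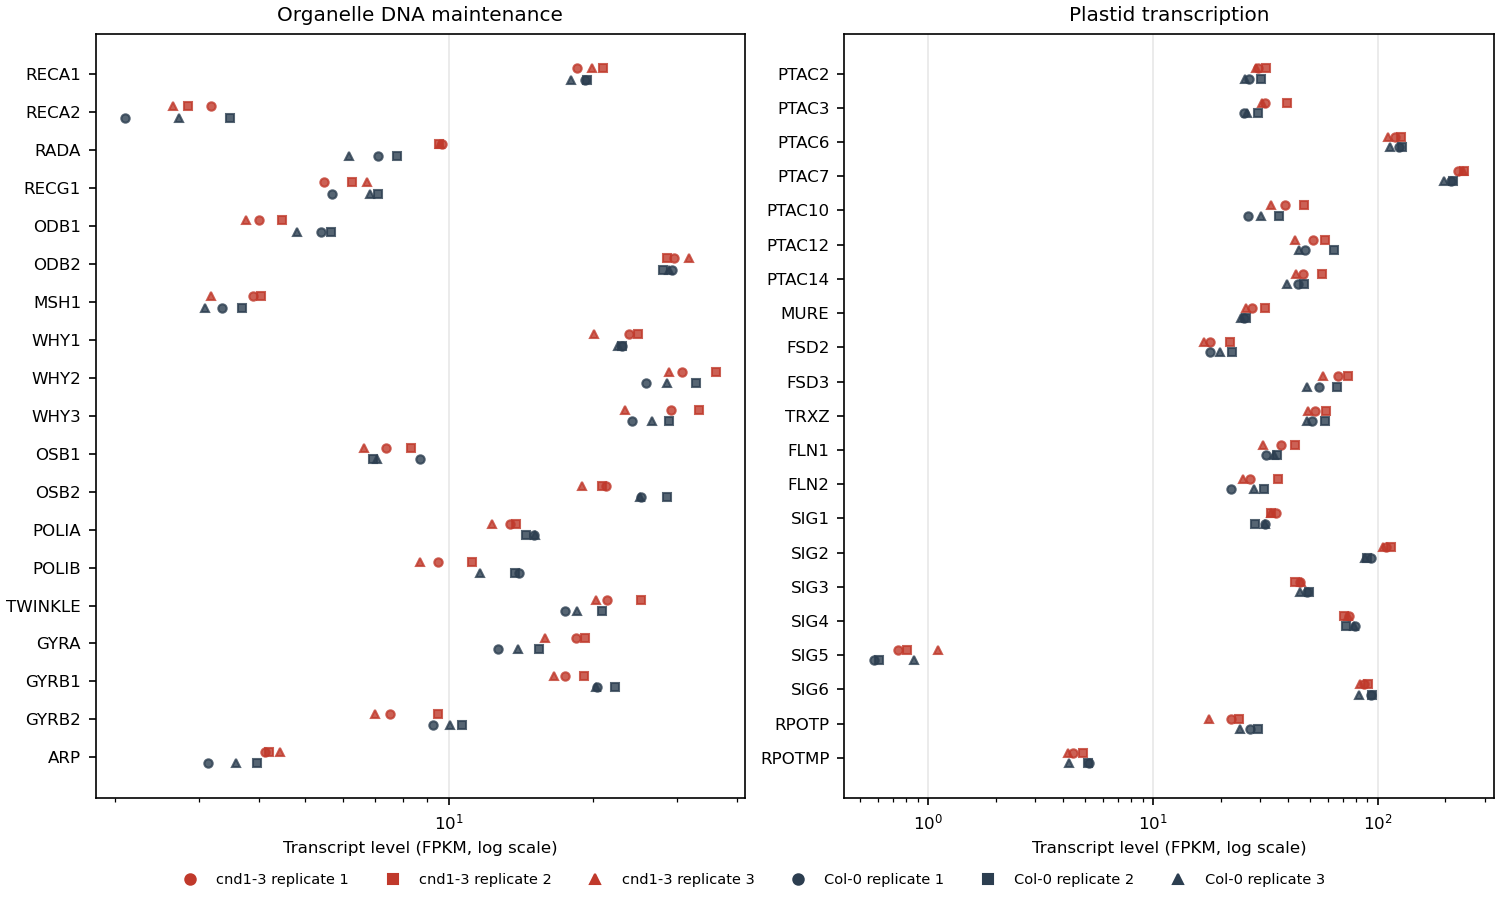
Transcript level (FPKM, log scale) of the 40 genes in each of the 6 libraries, with cnd1-3 in red, Col-0 in dark blue and the replicate shown by the symbol. The difference between genes, from 0.681 FPKM for SIG5 to 209 for PTAC7 in the Col-0 means, is far larger than that between genotypes.

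The genotypes differed little in these genes. Tested with limma across 17096 genes, 4 of the 40 passed at an adjusted p under 0.05, where 11.1% of all tested genes did. RADA and SIG2 rose in cnd1-3, and 3.50% of all tested genes were called higher. OSB2 and POLIB fell, and 7.59% of all tested genes were called lower. In this fit the share of members called, 10%, is near the background. With the replicate number as a block, 6 of 19 maintenance and 5 of 21 transcription genes passed, beside 2879 of 17096 tested genes. That is a larger share of the members than of all genes, and the difference was not tested. An unadjusted p under 0.05 was found for 13 of the 40, against 28.6% of all tested genes. In 14 of the 40 genes the cnd1-3 and Col-0 values lay fully apart (33.9% of all tested genes), with 8 higher in cnd1-3 (12.3%) and 6 lower (21.5%). With no minimum level none of the 4 calls held (adjusted p = 0.109 for RADA, 0.114 for OSB2, 0.212 for POLIB and 0.069 for SIG2), and in eBayes without an intensity trend RADA alone passed. The log2 fold changes of the 40 genes lay between -0.41 and 0.43, with a median of 0.07, while the median over all tested genes was -0.05 and 12.5% of these changed by more than any member did. The 95% intervals of the 36 members without a call reached from -0.61 to 0.67, so the data leave room for changes of that size in the least certain of them. Fold changes are on the scale of log2(FPKM + 0.5) and are drawn toward 0 for low genes such as SIG5.

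**Figure D2:**
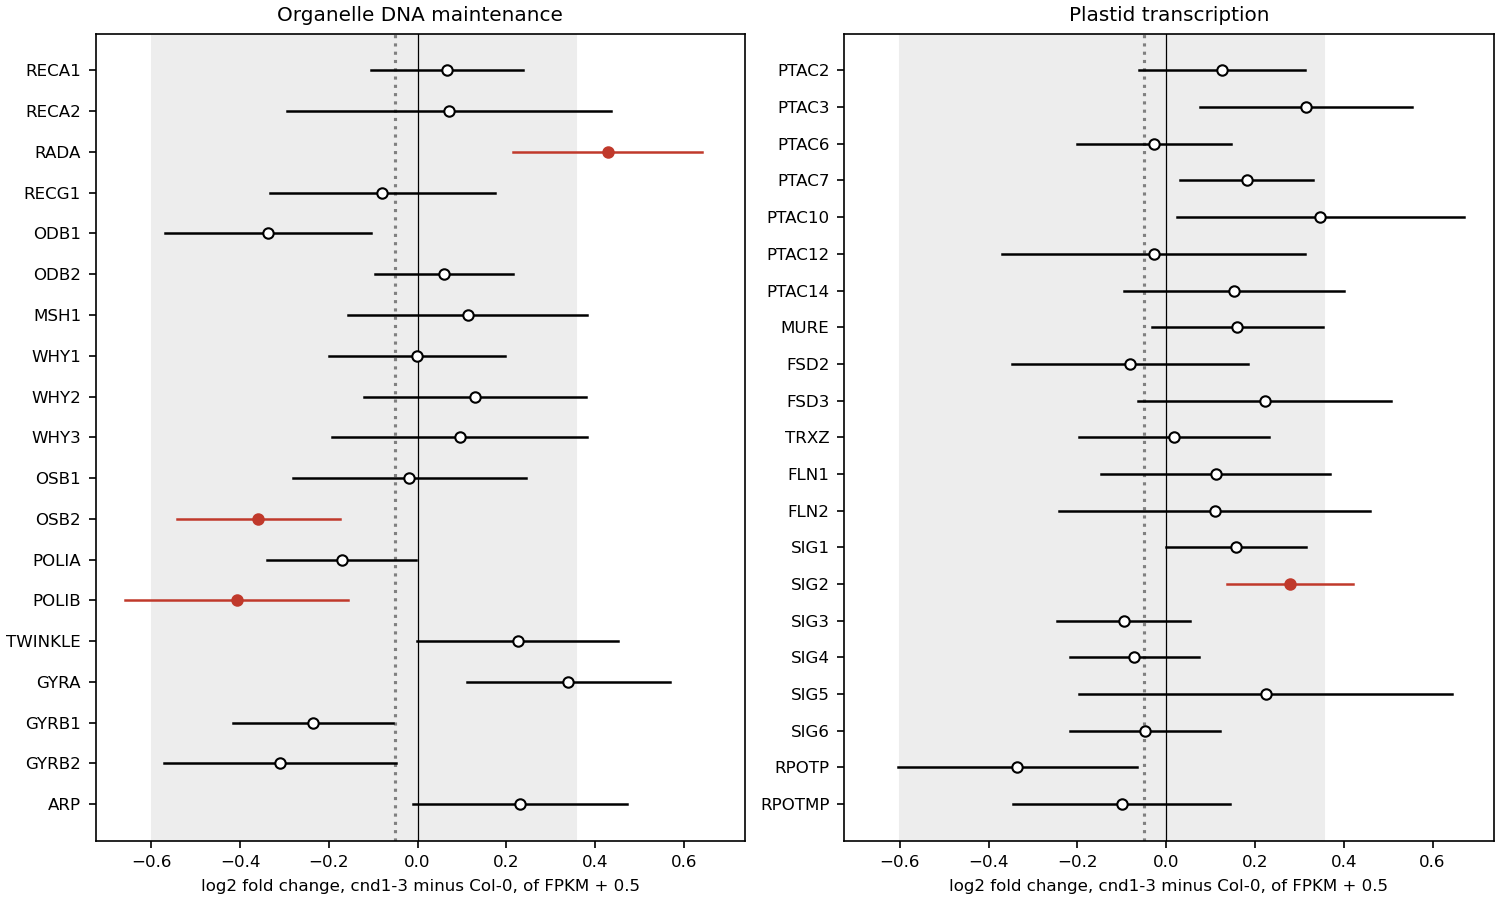
Log2 fold change (cnd1-3 minus Col-0, of FPKM + 0.5) of each gene with its unadjusted 95% interval from limma. Filled red points passed an adjusted p under 0.05. The grey band spans the 5th to 95th percentile of all tested genes (-0.60 to 0.36) and the dotted line their median (-0.05).

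The 120 bases before the annotated start are shown for 6 genes. RADA, SIG2 and GYRA had higher values in cnd1-3, and OSB2, ODB1 and GYRB1 had lower ones. Each is read on the strand of its gene from RefSeq's TAIR10.1 genome. The 250 bases before the start of GYRA and of SIG2 reach into a neighbouring annotated gene, and those of the other four do not. Capitals mark site II elements, TGGGCC or TGGGCT on either strand, which are known from promoters of genes for ribosomal and organelle proteins. All lower genes shown hold this element. POLIB, POLIA and RPOTP, which also had lower values, hold none within 250 bases and are not shown. PTAC3 and PTAC7, with higher values, hold none and are not shown either. The genes shown are thus no guide to how often the element occurs.
RADA (chr5:20496590-20496709, minus strand): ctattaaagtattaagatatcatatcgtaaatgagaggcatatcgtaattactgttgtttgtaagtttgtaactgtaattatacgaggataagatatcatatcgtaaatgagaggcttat
SIG2 (chr1:2703175-2703294, plus strand): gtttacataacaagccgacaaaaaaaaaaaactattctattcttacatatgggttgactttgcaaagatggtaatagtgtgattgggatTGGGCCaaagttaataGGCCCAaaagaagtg
GYRA (chr3:3346361-3346480, minus strand): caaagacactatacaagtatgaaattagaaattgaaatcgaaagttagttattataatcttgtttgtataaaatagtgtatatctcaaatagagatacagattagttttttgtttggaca
OSB2 (chr4:10841815-10841934, plus strand): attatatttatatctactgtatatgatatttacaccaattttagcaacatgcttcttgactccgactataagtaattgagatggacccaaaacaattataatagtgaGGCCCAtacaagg
ODB1 (chr1:26880065-26880184, minus strand): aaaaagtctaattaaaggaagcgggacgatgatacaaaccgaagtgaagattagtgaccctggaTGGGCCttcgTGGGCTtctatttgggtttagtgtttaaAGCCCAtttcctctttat
GYRB1 (chr3:3179787-3179906, minus strand): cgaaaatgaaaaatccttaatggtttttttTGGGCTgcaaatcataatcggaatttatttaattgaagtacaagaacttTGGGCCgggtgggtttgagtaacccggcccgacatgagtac

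Within 250 bases before the start, a site II element was found for 13 of the 40 genes (32.5%) and for 24.2% of 16876 tested nuclear genes. Of the 11 genes with a call or a separation at an unadjusted p under 0.05, it was found in 1 of the 5 with higher values in cnd1-3 (SIG2) and in 3 of the 6 with lower values (ODB1, OSB2 and GYRB1). GYRA has none in its window, whereas GYRB1 has 2. The stretch before RADA holds a direct repeat of 27 bases, with copies starting 108 and 31 bases before the start. Other motifs searched on both strands were the telo box AAACCCTA, in 0 of the 40 genes and 3.95% of all tested, and the G-box CACGTG, in 2 (PTAC2 and PTAC3) and 7.25%. The evening element AAAATATCT was found in 2 (SIG3 and RPOTMP) and 2.51%. These matches are a description of letters in the window.

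Among the recombination genes, RADA rose. RADA (AT5G50340, chromosome 5, 20491393 to 20496589 in the TAIR10.1 annotation, no overlap with another gene) codes for a RadA-like helicase that acts in recombination in both organelles. Its level was 9.65, 9.52 and 9.58 FPKM in the 3 cnd1-3 libraries and 7.11, 7.77 and 6.19 in the Col-0 libraries. The cnd1-3 libraries lay close together and above every Col-0 library, at 9.58 ± 0.0618 against 7.02 ± 0.796 (SD, n = 3). The log2 fold change was 0.43 (SE 0.09, limma adjusted p = 0.0233). When libraries were left out one at a time, in 6 fits, those without Col-0 replicate 2 (adjusted p = 0.0266) and without Col-0 replicate 3 (0.0406) kept the call. It was lost without cnd1-3 replicates 1, 2 and 3 (0.0791, 0.0667 and 0.064) and Col-0 replicate 1 (0.0538).

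ODB1 (AT1G71310), a mitochondrial protein gene related to RAD52, the annealing factor of yeast recombination, had lower values in cnd1-3 without passing. It measured 4.01, 4.47 and 3.77 FPKM in cnd1-3 and 5.40, 5.67 and 4.80 in Col-0. The groups did not overlap, and the log2 fold change was -0.34 (95% interval -0.57 to -0.10, adjusted p = 0.0687). An annotated gene on the opposite strand overlaps ODB1 over 575 bases. How reads in that stretch were assigned, or whether they were dropped, is not given in the sources used here. Its plastid relative ODB2 stood at 29.9 ± 1.63 FPKM in the mutant and 28.6 ± 0.643 in the wild type (SD, n = 3). The log2 ratio of ODB1 to ODB2 within each library was lower in every cnd1-3 library (-2.74, -2.54 and -2.92) than in every Col-0 library (-2.33, -2.21 and -2.47). Apart from the 0.5 added to each level, this ratio does not depend on scaling between libraries. The remaining recombination genes overlapped between the genotypes. The plastid strand exchange gene RECA1 averaged 19.8 ± 1.24 and 18.9 ± 0.789 FPKM, and RECA2, whose protein goes to both organelles, 2.89 ± 0.27 and 2.77 ± 0.694. The RecG-like translocase gene RECG1 averaged 6.16 ± 0.629 and 6.54 ± 0.751, and MSH1, a MutS homologue that holds down recombination between repeats, 3.71 ± 0.468 and 3.38 ± 0.304. Of the 7 recombination genes 1 rose, 0 fell and 6 did not pass.

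Among the single-stranded DNA binding proteins, OSB2 fell while the values of the Whirly genes overlapped. OSB2 (AT4G20010, chromosome 4, 10841935 to 10844124), which codes for a plastid protein also listed as PTAC9, measured 21.2, 20.9 and 18.97 FPKM in cnd1-3 and 25.2, 28.6 and 25.1 in Col-0. Every cnd1-3 library lay below every Col-0 library, with a log2 fold change of -0.36 (SE 0.08, limma adjusted p = 0.0258). The OSB2 call was kept without Col-0 replicate 1 (adjusted p = 0.0473) and without Col-0 replicate 3 (0.0318). It was lost without cnd1-3 replicates 1, 2 and 3 (0.0603, 0.0633 and 0.0791) and Col-0 replicate 2 (0.0817). Its mitochondrial relative OSB1 measured 7.37, 8.34 and 6.64 FPKM in cnd1-3 and 8.68, 6.95 and 7.06 in Col-0, which overlap. The log2 ratio of OSB1 to OSB2 was -1.40 ± 0.106 in cnd1-3 and -1.74 ± 0.24 in Col-0, without overlap. The plastid Whirly genes WHY1 and WHY3 reached 22.9 ± 2.48 and 28.5 ± 4.97 FPKM in the mutant and 22.8 ± 0.275 and 26.5 ± 2.38 in the wild type. For WHY1 the log2 fold change was -0.00 with an interval of -0.20 to 0.20. WHY2 averaged 31.8 ± 3.76 and 29.1 ± 3.51, and its log2 fold change was 0.13 (interval -0.12 to 0.38).

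Of the 6 replication genes 0 rose, 1 fell and 5 did not pass. POLIB (AT3G20540, chromosome 3, 7168054 to 7173617, named POLGAMMA1 in the annotation), which codes for an organellar DNA polymerase with a known part in repair, was the one that fell. It measured 9.47, 11.2 and 8.71 FPKM in cnd1-3 and 14.0, 13.7 and 11.6 in Col-0, with a log2 fold change of -0.41 (SE 0.11, limma adjusted p = 0.0488). The highest cnd1-3 library lay just below the lowest Col-0 library. The POLIB call was kept without cnd1-3 replicate 2 (adjusted p = 0.0377) and without Col-0 replicate 3 (0.0324). It was lost without cnd1-3 replicates 1 and 3 (0.138 and 0.135), without Col-0 replicates 1 and 2 (0.127 and 0.142), under median-ratio scaling (0.0547) and under quantile normalization (0.0601). POLIA (AT1G50840), the other such polymerase gene, measured 13.4, 13.8 and 12.3 FPKM in cnd1-3 and 15.04, 14.4 and 15.1 in Col-0. Its groups did not overlap either, but it did not pass (log2 fold change -0.17, interval -0.34 to -0.00, adjusted p = 0.169). The log2 ratio of POLIA to POLIB overlapped between the genotypes, at 0.42 ± 0.106 in cnd1-3 and 0.18 ± 0.16 in Col-0. TWINKLE, the primase-helicase gene, averaged 22.3 ± 2.52 and 19 ± 1.7 FPKM (adjusted p = 0.177).

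Gyrase, the topoisomerase that puts negative supercoils into DNA, is built from A and B subunits, and in Arabidopsis a single A subunit gene serves both organelles while the B subunit has a plastid and a mitochondrial gene. GYRA (AT3G10690), the A subunit gene, measured 18.5, 19.3 and 15.9 FPKM in cnd1-3 and 12.7, 15.4 and 13.9 in Col-0. GYRB1 (AT3G10270), the plastid B subunit gene, measured 17.5, 19.1 and 16.6 in cnd1-3 and 20.4, 22.2 and 20.3 in Col-0. GYRB2 (AT5G04130), the mitochondrial B subunit gene, measured 7.53, 9.46 and 7.01 in cnd1-3 and 9.26, 10.6 and 10.03 in Col-0. GYRA was higher in every cnd1-3 library and GYRB1 lower in every one, whereas GYRB2 overlapped through cnd1-3 replicate 2. None of the 3 passed alone (log2 fold changes 0.34, -0.24 and -0.31, limma adjusted p = 0.0633, 0.0912 and 0.118). Beside the fit with a replicate block, GYRA passed under median-ratio scaling (0.0243), quantile normalization (0.0348), library weights (0.0448) and limma's voom on recovered reads (0.0373), and without cnd1-3 replicate 3 (0.0485), and GYRB2 passed without cnd1-3 replicate 2. The log2 ratio of GYRA to GYRB1, computed after these values were seen, was 0.07, 0.01 and -0.06 in cnd1-3 and -0.66, -0.51 and -0.53 in Col-0. In Col-0 the A subunit transcript was thus the rarer of the pair, and in cnd1-3 both stood at nearly the same level. The ratio of GYRA to GYRB2, likewise computed after these values were seen, was 1.118 ± 0.125 in cnd1-3 and 0.47 ± 0.0439 in Col-0. Having been picked for their size, these ratios are a description. ARP, a plastid gene of base excision repair, measured 4.13, 4.2 and 4.43 FPKM in cnd1-3 and 3.13, 3.98 and 3.59 in Col-0, without overlap and without a call (adjusted p = 0.195). An annotated gene on the opposite strand overlaps ARP over 224 bases.

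**Figure D3:**
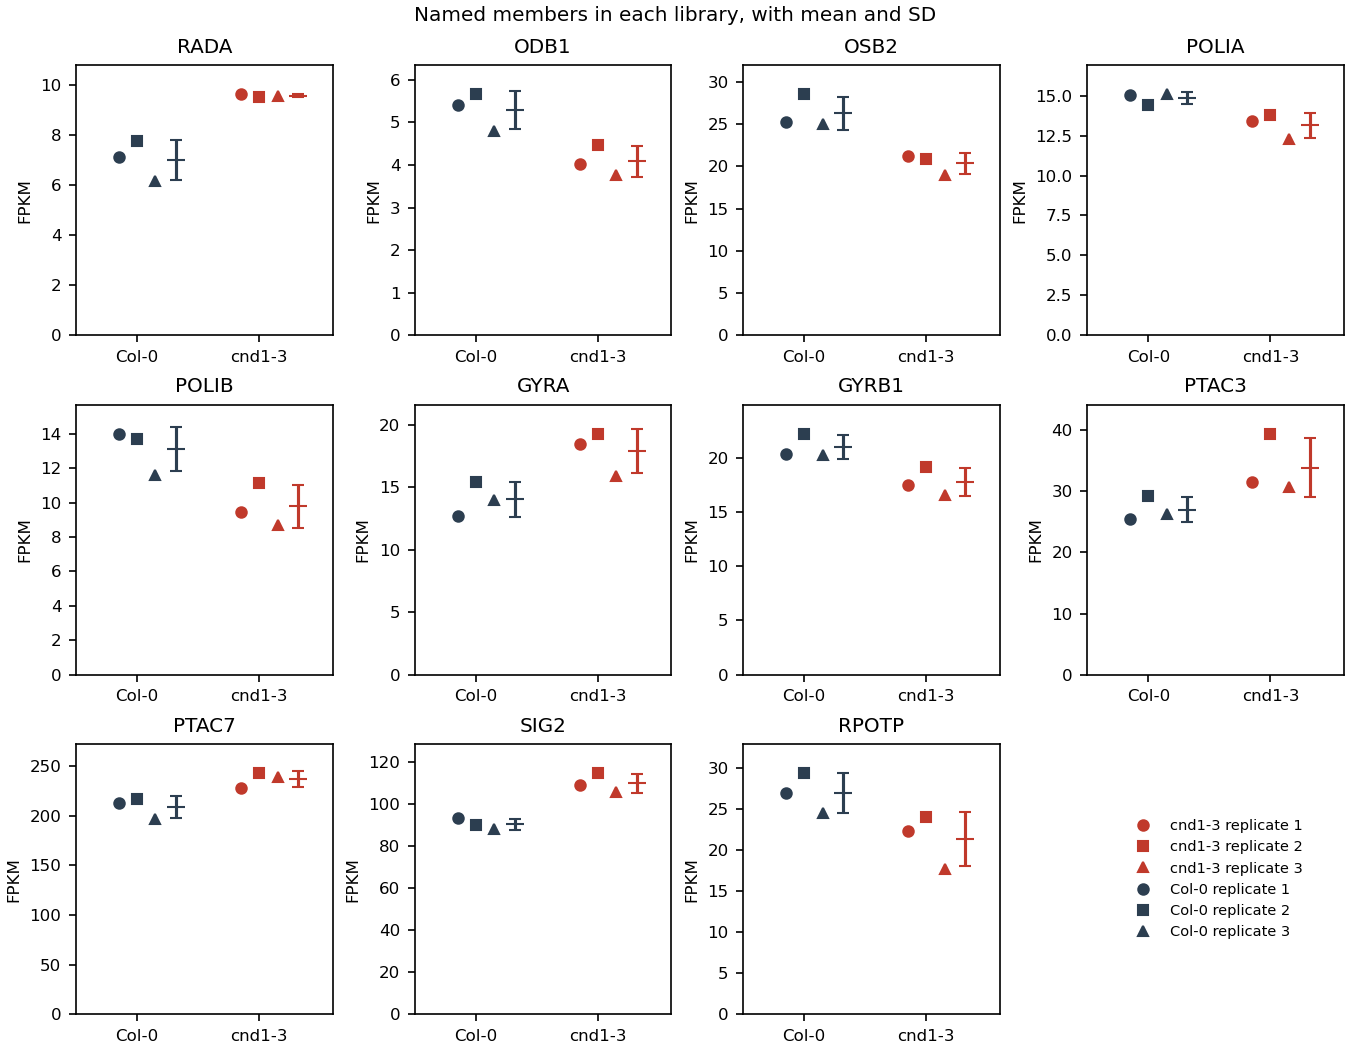
FPKM in each library of the 11 genes that passed the test or had an unadjusted p under 0.05 with no overlap between genotypes. Bars beside the points give the mean and SD of 3 libraries. RADA, GYRA, PTAC3, PTAC7 and SIG2 lie higher in cnd1-3 and the other 6 lie lower.

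By organelle, the maintenance genes split as follows. Of 7 plastid genes 0 rose and 1 fell, of 8 genes for both organelles 1 rose and 1 fell, and of 4 mitochondrial genes 0 were called by limma, with 2 at an unadjusted p under 0.05 (28.6% of all tested genes) and 0 calls by voom. Of these mitochondrial genes GYRB2 passed in the fit without cnd1-3 replicate 2, and ODB1 passed in 0 of the 6 fits with 1 library removed. The median log2 fold change was 0.06 for the plastid genes, 0.09 for those of both organelles and -0.16 for the mitochondrial genes, beside -0.05 over all tested genes. Under quantile normalization these medians were 0.09, 0.21 and -0.08, beside 0.02. With 4 mitochondrial genes, no difference between the organelles was tested. Over all 19 maintenance genes 1 was called higher and 2 lower. That split was 2 higher and 1 lower under median-ratio scaling, which added GYRA and lost POLIB, and 3 higher and 1 lower under quantile normalization, which also added ARP.

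Among the 21 genes of plastid transcription SIG2 was the single call. Sigma factors guide the plastid-encoded polymerase to its promoters, and SIG2 is known for transcription of plastid tRNA genes. SIG2 (AT1G08540, chromosome 1, 2703295 to 2706860, no overlap with another gene) measured 109, 114 and 106 FPKM in cnd1-3 and 93.1, 89.9 and 87.8 in Col-0. All cnd1-3 libraries were higher, with means of 110 ± 4.48 and 90.3 ± 2.66, and the log2 fold change was 0.28 (SE 0.06, limma adjusted p = 0.0251). The SIG2 call was kept without cnd1-3 replicate 3 (adjusted p = 0.0442), without Col-0 replicate 1 (0.0435) and without Col-0 replicate 3 (0.0476). It was lost without cnd1-3 replicates 1 and 2 (0.0868 and 0.0941), without Col-0 replicate 2 (0.0731) and in eBayes without an intensity trend (0.06).

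None of the other sigma factor genes was called by limma or by voom. SIG1, which serves photosynthesis genes, measured 35.3, 33.5 and 33.4 FPKM in cnd1-3 and 31.5, 28.5 and 31.6 in Col-0. These did not overlap but did not pass (log2 fold change 0.16, interval -0.00 to 0.31, adjusted p = 0.176). SIG3, linked to psbN, averaged 44.6 ± 1.63 and 47.7 ± 2.1 FPKM, and SIG4, linked to ndhF, 72.9 ± 1.86 and 76.7 ± 3.67. SIG6, needed for early chloroplast development, averaged 87 ± 3.77 and 90.1 ± 6.6. SIG5 measured 0.732, 0.806 and 1.10 FPKM in cnd1-3 and 0.573, 0.606 and 0.864 in Col-0, which overlap, and with so few reads its interval was wide (-0.20 to 0.64). The log2 fold changes of SIG3, SIG4 and SIG6 had intervals within -0.25 and 0.12. By summed level the 6 sigma factor genes stood at 349 ± 5.53 FPKM in cnd1-3 and 336 ± 9.99 in Col-0.

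Both phage-type polymerase genes had lower means in cnd1-3 without passing, though under quantile normalization 1 of the 2 had a fold change above 0. RPOTP (AT2G24120, also SCA3), the plastid enzyme gene, measured 22.3, 24.1 and 17.7 FPKM in cnd1-3 and 27.0, 29.4 and 24.5 in Col-0. The groups did not overlap, with cnd1-3 replicate 2 close to Col-0 replicate 3 (log2 fold change -0.34, interval -0.60 to -0.07, limma adjusted p = 0.104). RPOTMP, whose protein goes to both organelles, averaged 4.5 ± 0.355 and 4.87 ± 0.534 FPKM. The log2 ratio of RPOTP to RPOTMP was 2.21, 2.19 and 1.96 in cnd1-3 and 2.27, 2.40 and 2.39 in Col-0, lower in every cnd1-3 library.

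None of the 13 genes of polymerase-associated proteins was called by limma, although 3 reached an unadjusted p under 0.05, and voom likewise gave 0 calls. PTAC3, a gene of a core associated protein with a SAP domain, measured 31.5, 39.4 and 30.7 FPKM in cnd1-3 and 25.4, 29.3 and 26.3 in Col-0 (log2 fold change 0.31, adjusted p = 0.0897). PTAC7, the most abundant of the family, measured 228, 243 and 239 in cnd1-3 and 213, 217 and 197 in Col-0 (0.18, adjusted p = 0.111). Both had no overlap between the genotypes, and both passed under median-ratio scaling (0.0356 and 0.0468). An annotated gene on the opposite strand overlaps PTAC7 over 225 bases. PTAC10, a gene of an RNA-binding protein, had the largest fold change of the family (0.35, interval 0.02 to 0.67, adjusted p = 0.149), but its values overlapped, at 38.6, 47.0 and 33.4 against 26.6, 36.4 and 30.2. MURE, a gene related to a bacterial cell wall ligase, measured 27.6, 31.7 and 25.9 FPKM in cnd1-3 and 25.3, 25.9 and 24.6 in Col-0, a narrow separation that did not pass (adjusted p = 0.252).

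The other associated genes overlapped between the genotypes. The iron superoxide dismutase genes FSD3 and FSD2 averaged 65.9 ± 8.43 and 19 ± 2.75 FPKM in cnd1-3 and 56.5 ± 8.67 and 20.1 ± 2.24 in Col-0. Their log2 ratio, FSD2 to FSD3, was lower in every cnd1-3 library (-1.86, -1.72 and -1.73) than in Col-0 (-1.59, -1.53 and -1.28). The thioredoxin gene TRXZ averaged 53.5 ± 5.13 and 52.8 ± 5.07. The fructokinase-like genes FLN1 and FLN2, whose products bind that thioredoxin, stood at a log2 fold change of 0.11 each (adjusted p = 0.561 for FLN1, 0.684 for FLN2). PTAC12, also known as HEMERA, which acts in plastids and in light signalling in the nucleus, averaged 51 ± 7.94 and 52.2 ± 10.4. PTAC2, PTAC6 and PTAC14, which respectively code for a pentatricopeptide repeat protein, a plastid protein and a SET-domain protein, stood at log2 fold changes of 0.13 (adjusted p = 0.35), -0.03 (0.842) and 0.15 (0.398). Over the 13 genes the median log2 fold change was 0.13, with 10 above 0 and 3 below. It was 0.18 under median-ratio scaling, where 12 lay above 0, beside medians over all tested genes of -0.05 and 0.00.

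The associated genes varied together between libraries of the same genotype. Each of the 13 was highest in replicate 2 among the cnd1-3 libraries and also highest in replicate 2 among the Col-0 libraries. Of all tested genes 24.8% were highest in replicate 2 of both genotypes. By summed level the 13 genes stood at 773, 870 and 735 FPKM in the cnd1-3 libraries and 711, 791 and 681 in the Col-0 libraries, so that Col-0 replicate 2 lay above cnd1-3 replicates 1 and 3. The genotype means were 793 ± 69.7 and 728 ± 56.9 (SD, n = 3), a difference smaller than the SD within cnd1-3. That SD includes the rise in replicate 2 that both genotypes show. At each replicate number the cnd1-3 sum was above the Col-0 sum, and this difference in sums was not tested. In the maintenance genes 10 of 19 were highest in replicate 2 of both genotypes. Of the 6 sigma factor genes 1, SIG6, was highest in replicate 2 of both genotypes, and their sums were 351, 353 and 343 FPKM in cnd1-3 and 346, 335 and 326 in Col-0. Markers of dividing cells, CYCB1;1 and KNOLLE, moved with the replicates too. Their sums were 1.76, 3.87 and 2.95 FPKM in cnd1-3 and 2.22, 4.40 and 2.95 in Col-0, and their part in the pattern was not tested. The labels do not say whether a replicate number marks a shared day or batch.

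**Figure D4:**
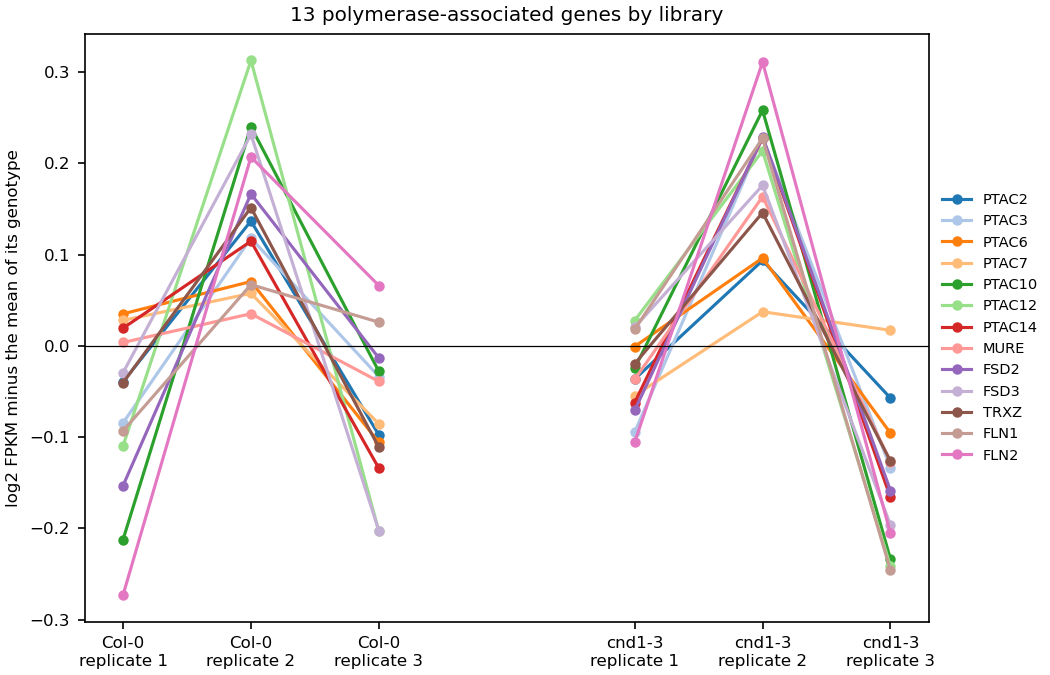
Log2 FPKM of each of the 13 polymerase-associated genes minus its mean over the 3 libraries of the same genotype. Lines join the values of a gene within a genotype and carry no order. All 13 genes peak in replicate 2 in both genotypes.

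Over the 10 pairs of related genes set side by side within each library, the ratios of 4 did not overlap between the genotypes. These were OSB1 to OSB2, ODB1 to ODB2, FSD2 to FSD3 and RPOTP to RPOTMP. With 3 libraries against 3 the two-sided exact permutation test cannot go below p = 0.1, which each of these 4 reached, and 0.25 after adjustment over the 10 pairs, so no ratio could pass. The differences in log2 ratio, cnd1-3 minus Col-0, were 0.34, -0.40, -0.30 and -0.23. In OSB1 to OSB2, ODB1 to ODB2 and RPOTP to RPOTMP the gene with the lower values in cnd1-3 was, respectively, a plastid, a mitochondrial and a plastid gene. The ratios of RECA1 to RECA2, FLN1 to FLN2 and GYRB1 to GYRB2 differed by -0.00, 0.00 and 0.07 and overlapped. Those of WHY1 to WHY3, WHY1 to WHY2 and POLIA to POLIB differed by -0.10, -0.13 and 0.24 and overlapped as well.

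**Figure D5:**
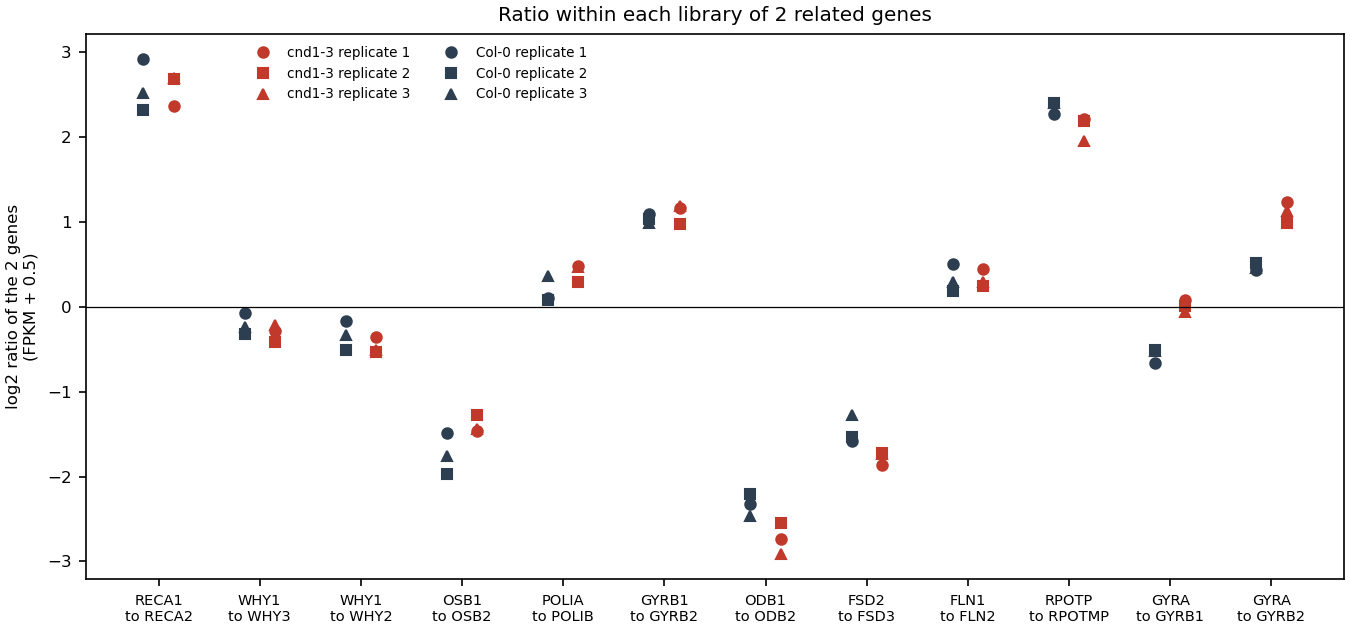
Log2 ratio (FPKM + 0.5) of related genes within each library, cnd1-3 in red and Col-0 in dark blue. The last pair of columns, GYRA to each GYRB gene, was added after the values were seen. OSB1 to OSB2, ODB1 to ODB2, FSD2 to FSD3 and RPOTP to RPOTMP separate the genotypes among the 10 listed pairs.

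Other nuclear genes for organelle DNA and transcription formed a list of 33, chosen by function with earlier results of these data known. It gave 5 calls among 31 tested members (16.1%, beside 11.1% of all tested genes), a share that is a description only. Of the 5 calls 4 were higher and 1 lower in cnd1-3, where 3.50% and 7.59% of all tested genes were. SIB1 (AT3G56710), which codes for a protein that binds a plastid sigma factor and also acts with a defence transcription factor in the nucleus, measured 4.92, 4.04 and 4.57 FPKM in cnd1-3 and 10.8, 13.04 and 13.5 in Col-0. All cnd1-3 libraries were less than 5 FPKM and all Col-0 libraries above 10 FPKM, and the log2 fold change was -1.37 (SE 0.11, limma adjusted p = 0.000427). SIB1 passed in all 6 fits that left out a library and in the 11 other alternatives run, with a highest adjusted p of 0.028. Its relative SIB2 and the gene PTAC18 were listed at 0 in every library and were not tested. An annotated gene on the opposite strand overlaps SIB2 over 920 bases, its whole length, and another overlaps PTAC18 over 1007 bases, likewise its whole length. The part of these overlaps in the zeros was not tested.

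The 4 that rose changed by less. MRL7 (AT4G28590), a gene needed for assembly of the plastid polymerase, measured 9.38, 11.6 and 10.2 FPKM in cnd1-3 and 8.02, 7.11 and 6.88 in Col-0 (log2 fold change 0.48, SE 0.10, limma adjusted p = 0.021). PRDA1 (AT5G48470), another gene tied to that polymerase, measured 18.4, 24.0 and 18.0 in cnd1-3 and 14.5, 14.9 and 15.4 in Col-0 (0.41, SE 0.11, adjusted p = 0.047). In both, cnd1-3 replicate 2 was the highest library. RECA3 (AT3G10140), the mitochondrial strand exchange gene, measured 10.7, 10.1 and 10.2 in cnd1-3 and 7.32, 8.03 and 8.72 in Col-0 (0.35, SE 0.09, adjusted p = 0.0356), and a gene on the opposite strand overlaps it over 241 bases. OSB3 (AT5G44785), an OSB gene for both organelles, measured 22.0, 24.1 and 21.8 in cnd1-3 and 18.5, 19.2 and 18.4 in Col-0 (0.27, SE 0.07, adjusted p = 0.0435). It thus lay on the other side of 0 from OSB2, but a gene on the opposite strand overlaps OSB3 over 1480 bases. Without 1 library, MRL7 kept its call in 3 of 6 fits (highest adjusted p 0.0713), RECA3 in 1 (0.123), PRDA1 in 1 (0.123) and OSB3 in 0 (0.143). RPOTM, the mitochondrial phage-type polymerase gene, did not pass (log2 fold change -0.26, adjusted p = 0.114), with values between 6.21 and 7.56 FPKM in cnd1-3 and between 7.98 and 8.88 in Col-0.

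Plastid transcripts that these proteins make were read from RNA with poly(A) tails only, which in plastids is a minor part, so their levels are a partial view. Their identifiers were matched to gene names by length, which fitted for 15 of 15, though not uniquely for psbA, psbD, clpP and psaJ. Of the core polymerase genes, rpoB fell, at 17.2, 19.02 and 15.1 FPKM in cnd1-3 and 23.4, 28.2 and 21.4 in Col-0 (log2 fold change -0.49, SE 0.12, limma adjusted p = 0.0321). The rpoB call was kept without cnd1-3 replicate 2 (0.04) or without Col-0 replicate 3 (0.0234). It was lost without each of the other libraries, with adjusted p up to 0.0918, with no minimum level (0.192) and in eBayes without trend (0.0598). The rpoA gene did not pass (log2 fold change -0.36, interval -0.82 to 0.09), rpoC1 averaged 0.727 ± 0.213 and 0.799 ± 0.332 FPKM, and rpoC2 lay below the minimum. As background, phage-type polymerases are known to read the operon of rpoB. Among the other genes listed as read by them, clpP had a log2 fold change of -0.15 (limma adjusted p = 0.396). For ycf1 it was -0.02 (adjusted p = 0.96), and accD and ycf2 lay below the minimum. A link between RPOTP and rpoB was not tested. Of the 11 plastid genes tested from this list, 0 rose, 1 fell and 10 did not pass. The psaA gene came close, at 2.47, 2.39 and 2.50 FPKM in cnd1-3 and 3.38, 3.42 and 3.09 in Col-0 (-0.36, adjusted p = 0.0507). The targets linked to the sigma factors SIG3 and SIG4 gave no call: psbN had a log2 fold change of 0.40 (interval -0.19 to 0.99), and ndhF lay below the minimum level.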

How the data were processed

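Messenger RNA from Arabidopsis thaliana seedlings of cnd1-3 and Col-0, 3 libraries each grouped by the genotype in their titles, was purified with oligo-dT beads and sequenced as read pairs, per the labels' protocols. The authors deposited FPKM per gene and library; the tools in the submitters' processing notes are HISAT2, Subread's featureCounts and DESeq2, with the TAIR10 build and no settings. Whether counting used strand is not given in the sources used here. Names, exon lengths and positions are those of RefSeq's TAIR10.1. Multiplying FPKM by exon length and depth returned whole reads, within 0.01, for 99.3% to 99.4% of values above 0, which gave the depths.

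Genotypes were compared on log2(FPKM + 0.5) by limma 3.58.1 (R 4.3.3), eBayes following the intensity trend, for 17096 genes with a mean of at least 0.5 FPKM, Benjamini-Hochberg adjusted over all of them at 0.05. It was tested on simulated data. Genes are named with values in every library where they were called, or where an unadjusted p was under 0.05 without overlap. In the 2 other lists the called genes are named, with the core polymerase genes. Genes named beyond this were chosen after their values were seen. The members and lists were chosen with earlier results of these data known. Ratios used a two-sided exact permutation test.

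Alternatives were pseudocounts of 0.1 and 1, no minimum and a minimum of 2 FPKM, median-ratio and quantile scaling, eBayes without trend or robust, library weights, the replicate block, voom on recovered reads and leaving out each library. For genes of the other lists they were chosen after seeing the data. Tables were handled in Python 3.11.15 using pandas 2.3.3, and permutation tests ran in scipy 1.17.1. Of the 40 members 17 overlap another annotated gene, 9 of them by more than 50 bases.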

Additional observations from a re-analysis of the deposited data

How the results depend on the processing

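None of the 11 members with a call or a separation at an unadjusted p under 0.05, nor the called genes of the other lists, changed direction under any alternative run. The counts of calls did change. With no minimum level 334 genes were called over the whole table, 0 of the maintenance genes, 0 of the plastid transcription genes, 1 of the other nuclear list and 0 of the plastid-encoded list. In eBayes without trend these were 1 maintenance, 0 transcription and 2 other nuclear genes. Median-ratio scaling called 3 transcription genes and library weights called 2 plastid-encoded genes. The cause was not tested. Over all tested genes 68.5% of calls were lower in cnd1-3, 54.3% under median-ratio scaling and 50.5% under quantile normalization. Leaving out each library in turn gave 0 to 3 maintenance genes, 0 to 1 transcription genes, 906 to 1848 genes in all, 1 to 3 of the other nuclear list and 0 to 1 of the plastid-encoded list. With fewer libraries there is less power, and each fit assumes that the pair left varies like the other group. With the replicate number as a block 6 of 19 maintenance and 5 of 21 transcription genes were called, beside 2879 of 17096 in all. In that fit the share of members called was above that of all tested genes, unlike in the main fit. The members added by the block were ODB1 (adjusted p = 0.0396), GYRA (0.0368), GYRB1 (0.0417), PTAC3 (0.0225), RPOTP (0.0205), PTAC10 and FSD3. Deviations of same-numbered libraries correlated at 0.03, 0.16 and 0.26, and those of differently numbered ones at -0.24 to 0.08. Replicates 2 and 3 of cnd1-3 correlated best with the Col-0 library of the same number, and cnd1-3 replicate 1 with Col-0 replicate 2 (0.08). Whether same-numbered libraries share a batch was not tested and is not stated in the labels. Of the 10 gene pairs, 6 kept one sign over the 3 same-numbered differences of the replicate block, and 4 to 6 did not overlap without a library. The voom fit gave no value for plastid-encoded genes, for which reads were not recovered.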
